A study of Mus musculus with 167 samples.

Results

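V(D)J joins at the immunoglobulin heavy chain locus (Igh) were recorded in 3 libraries from mouse B-lineage cells, labelled pro-B cells, that carried Vav-Cre and 2 floxed copies of Pax5. These 3 were chosen by genotype and flow cell, out of 56 V(D)J libraries and 167 samples in the series. They were set against 4 control libraries of the same flow cell, of which 1 is labelled Pax5(+/+) and 3 are labelled Igh(+/+). The series asks how Wapl, the factor that takes cohesin off chromatin, and the layout of Igh bear on the choice of V genes.

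The labels number no replicates, and the numbers used here follow accession order and only name libraries. The genotype of replicate 1 is Pax5(fl/fl) Rag2(+/-) Vav-Cre, so it has 1 intact copy of a recombinase gene, and that of replicates 2 and 3 is Pax5(fl/fl) Rag2(+/+) Vav-Cre. Vav-Cre is active in blood cells from early progenitors onward, and the controls' labels name no Cre and no Rag2 genotype. All 7 libraries came from C57BL/6 mice, are labelled as pro-B cells and were made from cells sorted freshly from bone marrow. DNA was sheared, tagged with adapters that carry molecular identifiers, copied from biotinylated primers in the JH segments and amplified with nested primers. The libraries hold DNA joins and no RNA, so neither the labelled cell type nor the deletion of Pax5 can be checked in them. No age is given, and the labels do not say whether libraries came from separate animals, so p-values measure the spread between these libraries, which may be technical.

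A heavy chain gene is assembled in steps, in which the RAG recombinase first joins a D segment to a JH segment and then a V gene to the joined DJH. The V genes lie in a long array on 1 side of the D segments, and those far away depend on folding of the locus to come near DJH, which involves loops drawn in by cohesin. Pax5, which fixes B-cell identity in lymphoid progenitors, is known to be needed for that folding, and mouse cells without it join nearby V genes but few distant ones.

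Each file listed 193 V genes with a percent, and 183 of them matched RefSeq by symbol, 120 as functional segments and 63 as pseudogenes. Positions are on chromosome 12 of GRCm38, the build called mm10 in the submitters' processing notes, and distances are counted from the end of the outermost D segment at 113526809. Genes were put in classes by family. The Ighv2 and Ighv5 families are called proximal (33 genes), the Ighv1 and Ighv8 families distal (115 genes), and the other families, most of which lie between, middle (45 genes). A gene's share is its percent divided by the sum of all listed V genes in that library, so shares sum to 100 and a gain by some genes lowers the rest. The deposited percent, whose total also holds reads that are not listed, is given beside the main results. Depth is not stated beside the percent values, and no counting interval is given.

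Listed V genes made up a smaller part of the deposited total in cells lacking Pax5. The listed V genes summed to 3.45%, 7.69% and 9.84% in the 3 libraries lacking Pax5, in the order of replicates 1 to 3. They summed to 44.0%, 43.5% and 50.2% in the Igh(+/+) libraries and to 35.4% in the Pax5(+/+) library. All 3 libraries lacking Pax5 lay below all 4 controls, with means of 6.99% ± 3.25 (SD, n = 3) and 43.3% ± 6.06 (n = 4), a 6.19-fold difference. An exact permutation test of 3 against 4, two-sided, gave p = 0.02857, the smallest that its 35 splits allow, and the same p after adjustment over 6 summary measures. The lowest of the libraries lacking Pax5 was replicate 1, the library labelled Rag2(+/-), and the highest was 2.85-fold above it, against 1.42-fold among the controls. The part of the Rag2 label in that low value was not tested. What made up the remaining 93.0% and 56.7% is not stated in the sources used here.

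The V joins listed without Pax5 were concentrated on a few V genes next to the D segments. The effective number of V genes, an evenness measure that equals the number of genes when all are used equally, was 5.09, 5.90 and 5.46 without Pax5. It was 54.7, 54.2 and 56.1 in the Igh(+/+) libraries and 60.4 in the Pax5(+/+) library. The groups stood far apart, at 5.48 ± 0.404 and 56.35 ± 2.83 (exact permutation p = 0.02857). V genes listed above 0 numbered 72, 101 and 97 without Pax5 against 131 to 141 in controls. The count was lowest in replicate 1, whose listed V total was also lowest.

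The proximal families took most of the joins. Their share was 84.9%, 82.6% and 84.7% in the 3 libraries lacking Pax5 and 25.6%, 25.1%, 25.5% and 24.9% in the controls. The means were 84.1% ± 1.26 and 25.3% ± 0.354, a 3.33-fold higher share without Pax5 (exact permutation p = 0.02857). On the deposited scale the direction turned: the proximal sum was 2.93%, 6.35% and 8.34% without Pax5 against 8.79 to 12.8% in controls, 1.86-fold lower (exact permutation p = 0.02857, adjusted 0.0357 over 5 measures on that scale). The share of the proximal families was higher within a smaller listed V total.

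The distal families took 6.64%, 6.74% and 6.69% of V joins without Pax5 and 45.5%, 46.4%, 46.4% and 43.9% in controls. The share was nearly the same in the 3 libraries lacking Pax5 although their V totals differed 2.85-fold. The means of 6.69% ± 0.0527 and 45.6% ± 1.17 differed 6.81-fold, and the deposited sums of 0.469% ± 0.219 and 19.8% ± 3.19 differed 42.2-fold. The middle families took 8.45%, 10.6% and 8.58% against 28.1 to 31.2%, a 3.17-fold lower share and a 19.3-fold lower deposited sum. Distal and middle groups did not overlap on either scale (exact permutation p = 0.02857 for each). A comparison with the 1 Pax5(+/+) library or the 3 Igh(+/+) libraries alone gives nearly the same differences but cannot reach a p under 0.05.

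**Figure D1:**
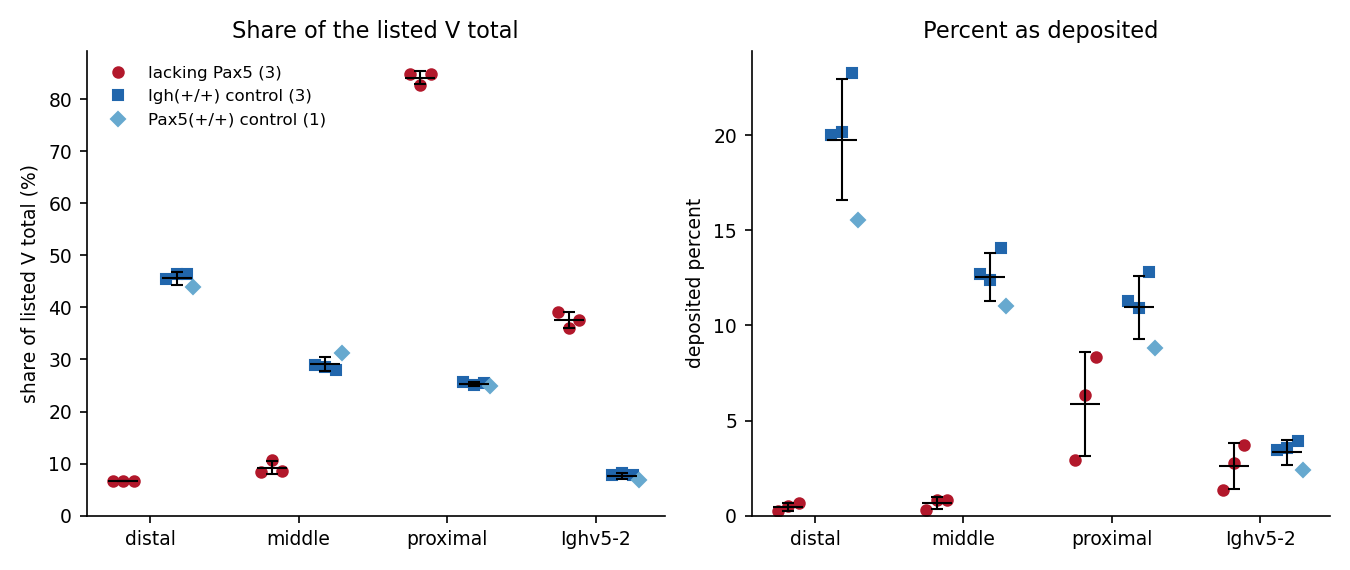
Each point is 1 library, in percent, for the distal, middle and proximal V families and for Ighv5-2, as a share of the listed V total and as the deposited percent, with bars for mean ± SD. On the share scale the 3 libraries lacking Pax5 sit at 82.6 to 84.9% for the proximal families, above the controls at 24.9 to 25.6%, whereas in deposited percent they sit below them, and for Ighv5-2 the groups overlap.

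Across V genes, 120 had a share of 0.05% or more in at least 3 of the 7 libraries and were tested with limma on log2(share + 0.02). Of these 112 passed an adjusted p of 0.05 (93.3% of those tested), 11 higher (9.17%) and 101 lower (84.2%) without Pax5. The controls alone could meet this filter, as could the libraries lacking Pax5. Tested genes at 0 in all 3 libraries lacking Pax5 could therefore only be called lower. With no filter on low values, 121 of 145 genes passed, 12 higher and 109 lower. Among the 120 genes, 67 of 69 distal genes were lower, and 28 of 33 middle genes were lower and 1 was higher. Of 18 proximal genes, 10 were higher and 6 lower. The median log2 change was -2.21 over all tested genes, -3.02 in the distal, -1.81 in the middle and 0.78 in the proximal class. On the deposited percent 115 genes were lower (95.8%) and 0 were higher, with a median of -3.10. The 5 that did not pass there were proximal, and the other 13 proximal genes were lower.

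On the share scale, the genes that rose lay mostly near the D segments and those that fell mostly further out. From Ighv5-1 to Ighv5-12, between 46.1 and 175 kb from the D segments, 9 of 10 tested genes were higher in share and 0 were lower. This stretch held 79.6% of V joins without Pax5 and 19.3% in controls. From Ighv5-15 outward, beginning 299.8 kb from the D segments, 100 of 107 tested genes were lower and 1 was higher, and these genes together held 17.8% against 78.3%. The 3 tested genes between these stretches, from Ighv2-6 to Ighv2-9-1, were 1 higher, 1 lower and 1 not called. The limits of the stretches were chosen after the values were seen, so the stretches cannot weigh distance against family. The split also depends on the scale. Centred on the median V gene, all 18 tested proximal genes were higher, as were 17 of 33 middle and 11 of 69 distal genes. In deposited percent 0 genes were higher.

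**Figure D2:**
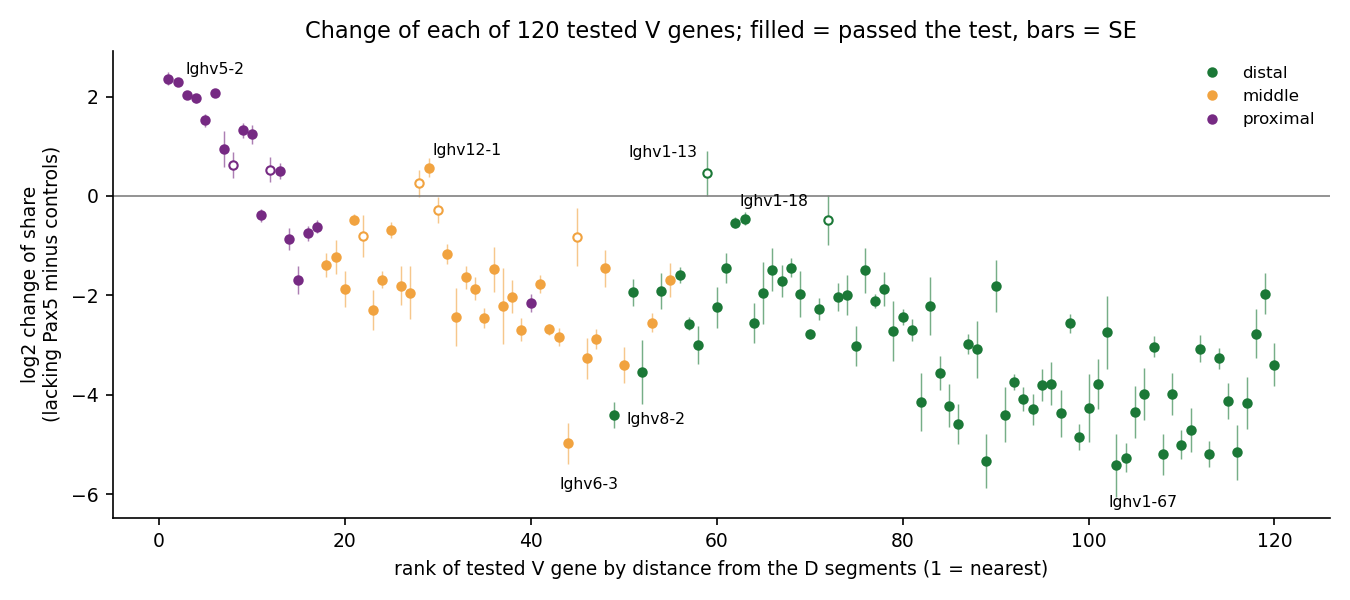
The vertical axis is the log2 change in share (cells lacking Pax5 minus controls) of each of the 120 tested V genes, with SE bars, and the horizontal axis is the rank of the gene by distance from the D segments. Filled points passed an adjusted p of 0.05, and the genes that rose lie at the left end, with Ighv12-1 the 1 higher gene among those from Ighv5-15 outward.

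Ighv5-2, the functional V gene nearest the D segments (113578504 to 113578990), was the most used V gene without Pax5. It took 39.1%, 36.0% and 37.7% of V joins there and 7.90%, 8.17%, 7.83% and 6.79% in the controls. Every library lacking Pax5 lay above every control, a 4.90-fold higher share (log2 change 2.29, SE 0.0703, limma adjusted p = 9.62e-08; exact permutation p = 0.02857). As deposited its values were 1.35%, 2.77% and 3.71% against 3.48%, 3.55%, 3.93% and 2.40%, and the groups overlapped (exact permutation p = 0.371). Ighv5-2 had a higher share of a lower listed V total, and in the deposited percent no difference was detected, with means of 2.61% ± 1.19 and 3.34% ± 0.655.

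The next functional genes outward also took larger shares. Ighv2-2 (113588267 to 113588700) took 17.3%, 15.6% and 15.6% against 4.04%, 4.20%, 4.03% and 3.43%, and was 4.11-fold higher in share (log2 change 2.04, SE 0.0825, limma adjusted p = 1.75e-07). Ighv5-4 (113597448 to 113597741) took 8.63%, 8.90% and 10.1% against 2.50%, 2.39%, 2.43% and 2.08%, and was 3.92-fold higher. At both genes the groups of libraries did not overlap in share. In deposited percent Ighv2-2 had means of 1.11% and 1.71% and Ighv5-4 of 0.659% and 1.02%, and neither difference passed the test there. Together Ighv5-2, Ighv2-2 and Ighv5-4 held 62.9% ± 2.32 of V joins without Pax5 and 13.95% ± 1.11 in controls.

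Ighv5-2 had the largest rise in share, on the log2 scale, of the tested functional genes. Ighv5-2 made up 44.7% ± 1.25 of proximal joins without Pax5 and 30.4% ± 2.18 in controls. The ratio of Ighv5-2 to Ighv2-2 was 2.33 ± 0.0849 and 1.96 ± 0.0169. These are ratios within a library, which do not depend on its V total, and they are given as descriptions with no test.

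Ighv5-1, a pseudogene and the V gene closest to the D segments of those measured (113572929 to 113573222), had the largest rise in share, on the log2 scale, of the tested genes. It took 2.12%, 2.30% and 2.22% against 0.367%, 0.408%, 0.503% and 0.392%, 5.30-fold higher (log2 change 2.36, SE 0.134, limma adjusted p = 1.08e-06). In deposited percent it was at 0.156% and 0.183%, a difference that did not pass. A pseudogene cannot encode a heavy chain.

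Further out in the cluster the gains were smaller, with Ighv5-6 as an exception. Ighv2-3 rose 2.93-fold in share, to 3.95% from 1.35%, and Ighv5-12 rose to 2.89% from 1.22%. Ighv5-6 rose 4.24-fold, to 5.08% ± 0.117 from 1.20% ± 0.0859. On the deposited scale all of these had negative changes, and Ighv2-3 and Ighv5-12 passed the test as lower there, at log2 changes of -1.13 and -1.38. Centred on the median V gene, all 18 tested proximal genes were higher, with a median log2 change of 3.50. They include Ighv5-21, listed at 0 in all 3 libraries lacking Pax5, whose centred change rests on the pseudocount of 0.02.

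Some proximal family members further from the D segments fell in share with the rest of the locus. Ighv5-15, 299.8 kb from the D segments, was at 0.310% against 0.570% (log2 change -0.86). Ighv5-16 was at 0.288% against 0.909% (-1.69), Ighv5-17 at 0.609% against 1.05% (-0.75) and Ighv2-9 at 0.764% against 1.18% (-0.62). The pseudogene Ighv5-21, which lies among middle genes, was listed at 0 in all 3 libraries lacking Pax5 and took 0.0704% in controls. Of the proximal genes called, these 5 and 1 more were lower, and centred on the median V gene all 5 had positive changes. In deposited percent all 5 were called lower, Ighv5-16 by 17.1-fold and Ighv5-17 by 10.7-fold.

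The middle families held genes whose share changed little and others that were nearly lost. Ighv12-1, a pseudogene 580.5 kb out (114107259 to 114107563), took 0.442%, 0.528% and 0.436% against 0.316%, 0.301%, 0.360% and 0.261%. It was the only tested gene outside the proximal families whose share was called higher (log2 change 0.57, SE 0.195, limma adjusted p = 0.0206), and in deposited percent it was lower, at 0.0329% against 0.136%. Ighv9-1, a functional gene next to it, took 0.531%, 0.491% and 0.327% against 0.248% to 0.435%, and its groups overlapped (log2 change 0.25, adjusted p = 0.370). Ighv7-1, a pseudogene nearer the D segments, was lower at 0.570% against 1.44%, and Ighv9-3 at 0.614% against 1.38%. In deposited percent they were 15.3-fold and 12.7-fold lower.

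Losses were larger in the outer part of the middle region. Ighv3-6 was at 0.535% against 2.04%, Ighv13-2 at 0.261% ± 0.00604 against 1.79% ± 0.0717, and Ighv12-3, a gene of high use in controls, at 0.304% against 2.26%, 7.42-fold lower. Ighv6-3 (114391712 to 114392010) was listed at 0, 0 and 0.0364% against 0.899%, 0.825%, 0.848% and 0.898%. No library lacking Pax5 came near the controls at Ighv6-3 (log2 change -4.97, SE 0.411, limma adjusted p = 8.33e-06). Ighv10-1 was at 0.160% against 1.64% and Ighv6-6 at 0.104% against 0.894%. In deposited percent the falls were larger, 21.3-fold at Ighv3-6, 42.5-fold at Ighv13-2, 48.7-fold at Ighv12-3, 60.2-fold at Ighv10-1 and 50.9-fold at Ighv6-6, and Ighv6-3 was at 0.00119% against 0.374%.

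Among the distal families, Ighv8-2, which begins 935.5 kb from the D segments (114462290 to 114462589), took 0.0885%, 0.0377% and 0.0364% against 1.59%, 1.55%, 1.43% and 1.39%. Its share was 27.5-fold lower (log2 change -4.41, SE 0.264, limma adjusted p = 1.33e-06), a larger change than at Ighv1-11 and Ighv1-26 further out. In each library lacking Pax5 this share was the most common value above 0, held by 16 to 19 genes. Ighv8-2 thus lay near the floor there, and the size of its fall is uncertain. Ighv1-26 (114788372 to 114788665) took 0.339%, 0.340% and 0.376% against 2.48%, 2.56%, 2.43% and 2.66%, 7.20-fold lower, and Ighv1-11 was 6.13-fold lower. In deposited percent Ighv8-2 went from 0.646% to 0.00318% and Ighv1-26 from 1.09% to 0.0249%.

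Ighv1-18 and its neighbour Ighv1-19 kept more of their share than the other distal genes reported here as called lower. The 2 tested distal genes that were not called were Ighv1-13 and Ighv1-28. Ighv1-13 was at 0.288% against 0.179% (log2 change 0.46), with overlapping groups, and Ighv1-28 at 0.0421% against 0.0502% (-0.48). Ighv1-18 took 1.33%, 1.74% and 1.34% of V joins without Pax5 against 2.24%, 2.12%, 2.03% and 2.14% (114682632 to 114682925). The groups were separate, and the share was 1.45-fold lower (log2 change -0.54, SE 0.111, limma adjusted p = 0.00171). Ighv1-19, described after its values were seen, took 0.929%, 0.692% and 0.812% against 0.998 to 1.21% (log2 change -0.46, limma adjusted p = 0.0104). In deposited percent Ighv1-19 was at 0.0550% against 0.482%. Together the pair made up 34.0%, 36.0% and 32.2% of all distal joins without Pax5 and 6.72 to 7.59% in controls. In deposited percent Ighv1-18 was lower, at 0.104% against 0.921%, and centred on the median V gene its change was higher, at 2.18 (log2). Many Ighv1 genes are close copies, and how reads shared between copies were assigned is not stated. Mutants set beside these cells below also had higher values for the pair. It made up 22.6% and 17.8% of distal joins in Wapl(deltaP1,2/deltaP1,2) libraries, against 6.99% and 7.09% in their controls. The mean was 13.7% ± 2.11 in Wapl deltaP1 homozygotes, against 8.23% ± 0.966. In the Eed mutant it ranged from 6.52 to 25%, against a control mean of 7.18%. These values were not tested.

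The outer distal genes were nearly absent. Without Pax5 the genes Ighv1-63 and Ighv1-78 had a value of 0 in each of the 3 libraries, and they took 0.563% ± 0.0912 and 0.710% ± 0.0741 in controls. Ighv1-67 was listed at 0, 0 and 0.109% against a control mean of 1.58%, Ighv1-69 at 0, 0.0126% and 0 against 0.887%, and Ighv1-72 at 0, 0.0503% and 0.0364% against 1.56%. The 6 genes farthest from the D segments, Ighv1-80 to Ighv1-85, were all lower in share, with log2 changes of -5.15 at Ighv1-81 to -1.96 at Ighv1-84. In deposited percent all of these outer genes were called lower, with control means of 0.692% at Ighv1-67, 0.381% at Ighv1-69 and 0.677% at Ighv1-72 against 0.00358%, 0.000322% and 0.00248%. Values this low come in coarse steps: 16 to 19 genes shared 1 identical value in each library lacking Pax5, and the smallest share above 0 was 0.0295% in replicate 1. Of 76 distal genes above 0 in all 4 controls, 49 were at 0 in replicate 1, 23 in replicate 2, 25 in replicate 3 and 13 in all of these, most in the library with the lowest listed V total.

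**Figure D3:**
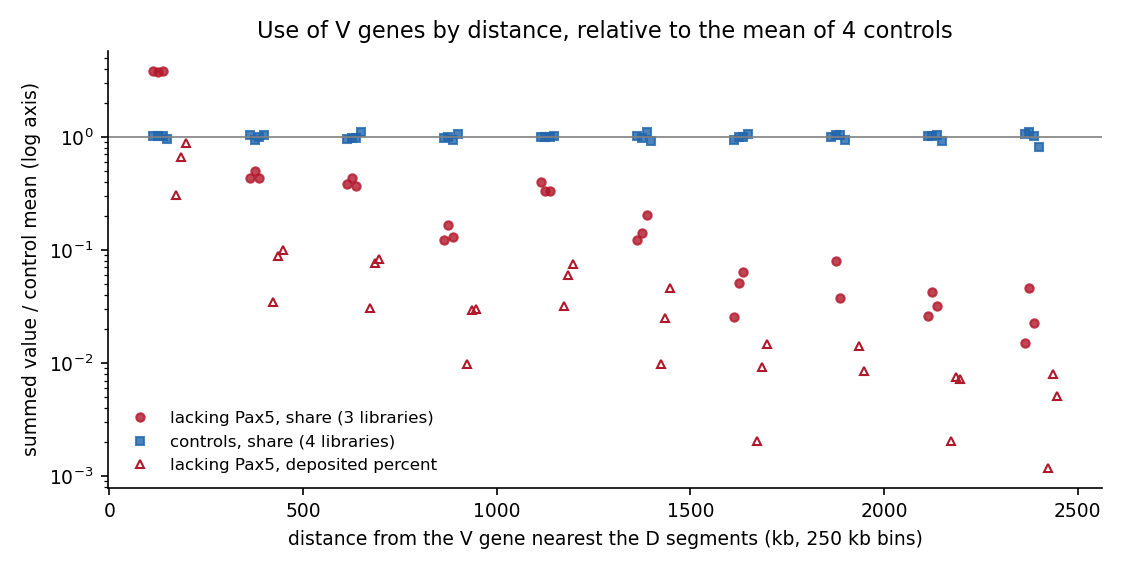
The summed value of V genes in 250 kb bins, divided by the control mean, is drawn on a log axis against distance from the first V gene, with red circles for share and triangles for deposited percent in the libraries lacking Pax5 and blue points for the controls. The share ratio goes from 3.82 in the first bin to 0.0278 in the last, and values at 0 are not drawn.

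Binned by position, the loss deepened outward but not evenly. The V genes of the first 250 kb held 82.1% ± 1.19 of joins without Pax5 and 21.5% ± 0.535 in controls. In the next bin the shares were 5.83% ± 0.502 and 12.8% ± 0.558, a ratio of 0.455, and in the outermost bin they were 0.164% and 5.91%, a 36.0-fold loss. The fifth bin, which holds Ighv1-18 and Ighv1-19, broke the order with a ratio of 0.354 between 0.14 and 0.157 in the bins beside it. In deposited percent the loss was 1.63-fold in the first bin, 13.5-fold in the next, 18.1-fold in the fifth and 210-fold in the outermost.

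Most functional genes and most pseudogenes tested were lower in share without Pax5. Of 105 functional genes tested, 9 were higher and 90 lower, and of 15 pseudogenes 2 were higher and 11 lower. Functional genes held 95.0% ± 0.283 of V joins without Pax5 and 92.85% ± 0.242 in controls, and pseudogenes held 5.01% ± 0.304 and 7.13% ± 0.244, differences that were not tested.

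The 3 libraries lacking Pax5 resembled each other closely at the genes in wide use. Over 145 genes above 0 in any library, Pearson's r of shares was 0.998 to 0.999 among them and 0.979 to 0.996 among the controls. Between the groups it was 0.731 to 0.813. Spearman's rho, which gives every gene the same weight, was 0.817 to 0.865 among the libraries lacking Pax5 and 0.977 to 0.991 among the controls. These are descriptions over genes of 1 locus, which share their library.

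The libraries lacking Pax5 were then set beside other mutants of the series with a shift to proximal V genes, each against controls of its own flow cell. The lists differ in length, with 189 V genes for the Wapl(deltaP1,2/deltaP1,2) run, 188 for Wapl deltaP1 and 183 for Eed. Shares were taken of each library's own listed V total. In Wapl(deltaP1,2/deltaP1,2) pro-B cells, which carry deletions at Wapl on both alleles, the proximal families also took most V joins. They took 87.6% ± 0.539 (n = 2), the middle families took 6.96% and the distal 5.40% ± 0.249. The 2 libraries lay above the 3 libraries lacking Pax5 for the proximal share and below them for both others, and these differences between mutants were not tested. Ighv5-2 took 34.3% ± 0.327 there and the effective number of V genes was 5.57. The listed V total was 10.1% ± 0.354, just above the 9.84% of the highest library lacking Pax5.

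Individual V genes differed between these mutants. With the difference of the log2 changes tested in a single limma fit, 12 of 121 genes passed (9.92%), 8 with a higher change without Pax5 (6.61%) and 4 with a lower one (3.31%). Ighv12-1 had a log2 change of 0.57 without Pax5 and -1.50 in the Wapl mutant, where its shares were 0.0554% and 0.150% (difference 2.07, SE 0.476, adjusted p = 0.0204). Ighv9-1 behaved likewise, with changes of 0.25 and -2.20 (difference 2.45, SE 0.578, adjusted p = 0.0204), and so did Ighv14-4, with -1.64 and -3.37 (difference 1.74, adjusted p = 0.0416). Ighv9-1 and Ighv12-1 are neighbours about 567 and 580.5 kb out. The Ighv12-1 share of 0.0554% was the most common value above 0 in that Wapl library, held by 11 genes. Ighv9-1 and Ighv14-4 were also low in the Wapl mutant, at 0.0826% ± 0.0646 and 0.0719% ± 0.0495 (n = 2). All 3 genes thus lay near the floor in the Wapl mutant, and the sizes of their differences are uncertain. Ighv1-18 also kept more of its share without Pax5 than in the Wapl mutant, where it took 0.609% and 0.748% (difference 1.19).

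Other genes went the opposite way. Ighv8-2 had a log2 change of -4.41 without Pax5 and -2.21 in the Wapl mutant, where it took 0.258% and 0.321% (difference -2.20, SE 0.384, adjusted p = 0.00756). Ighv6-3 had -4.97 and -2.73 (difference -2.24, SE 0.624, adjusted p = 0.0416), with 0.166% and 0.0855% in the Wapl mutant. Without Pax5 Ighv8-2 was at the most common value above 0 in each library, and Ighv6-3 at 0 or that value. Both genes thus lay near the floor there, and the sizes of these differences are uncertain. At the D-proximal end Ighv2-2 and Ighv2-3 gained less without Pax5 than in the Wapl mutant, by 0.59 and 0.93 on the log2 scale. On the deposited percent 0 of 121 differences passed in limma and 8 had an unadjusted p under 0.05. All 5 of the genes named with their differences by the stated rule kept their direction. The same pseudocount of 0.02 was used there and exceeds values without Pax5 such as 0.00318% at Ighv8-2 and 0.00119% at Ighv6-3. Changes of low genes are therefore compressed on that scale. On shares the count was 20 without replicate 1 and 22 without replicate 2 of the libraries lacking Pax5.

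**Figure D4:**
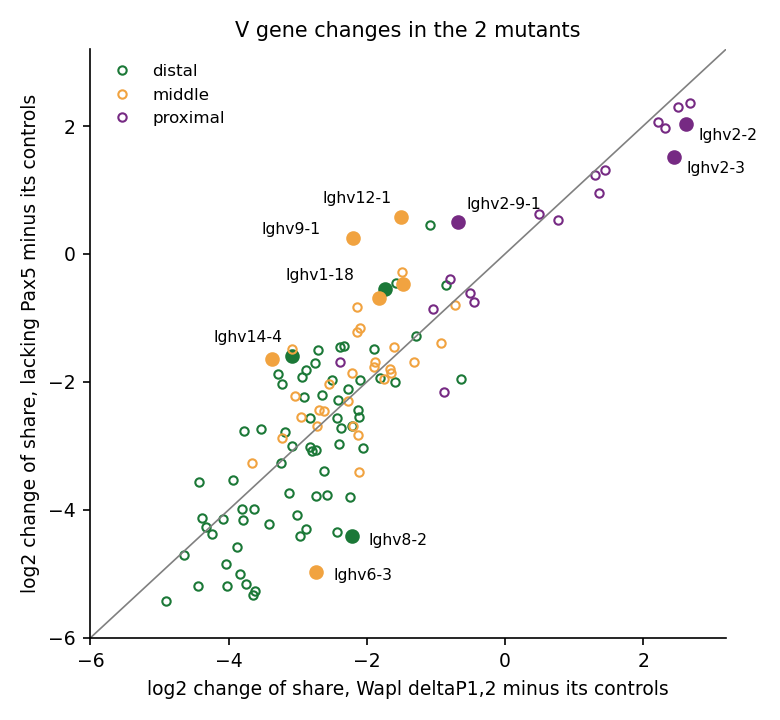
Each point is a V gene, placed by its log2 change in share in Wapl(deltaP1,2/deltaP1,2) cells (horizontal) and in cells lacking Pax5 (vertical), each against its own controls, and the line marks equal change. Filled points are the 12 genes whose changes differed, among them Ighv12-1 and Ighv9-1 above the line and Ighv8-2 and Ighv6-3 below it.

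The shift in share was milder in pro-B cells homozygous for deltaP1 at Wapl. The proximal families took 73.1% ± 1.79 (n = 3), the distal 13.6% ± 0.924 and Ighv5-2 26.9% ± 1.17 there, and the listed V total was 17.9% ± 0.811. Of 121 genes 58 differed in their change (47.9%), 53 of them lower without Pax5 (43.8%) and 5 higher (4.13%). The 5 with the largest differences were Ighv6-3 (difference -3.40), Ighv8-2 (-3.38), Ighv1-81 (-3.13), Ighv1-78 (-3.09) and Ighv1-69 (-3.01), all lower without Pax5. Without Pax5 all 5 lay near the floor, Ighv6-3 and Ighv8-2 as said above. Ighv1-81 was listed at 0, 0.0755% and 0, Ighv1-69 at 0, 0.0126% and 0, and Ighv1-78 at 0 in all 3 libraries. The sizes of these differences therefore rest in part on the pseudocount and are uncertain. The same holds for other genes called lower that were at or near 0 without Pax5. Ighv12-1 was again among the 5 higher ones.

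Pro-B cells labelled Eed(fl/fl) Rag1(Cre/+), in which a Polycomb gene is floxed and Cre sits at the recombinase gene Rag1, also had a high proximal share and a low listed V total. The proximal families took 68.7% ± 7.72 (n = 4), the distal 13.1% ± 4.07 and Ighv5-2 22.6% ± 3.79, with an effective number of 12.3 V genes and a listed V total of 2.69% ± 0.589. In each of these 4 libraries 21 to 27 genes shared 1 identical value, at a share of 0.181 to 0.394%. Deep losses are therefore hard to see in the Eed mutant, which limits the count and direction of differences. Of 122 genes 9 differed (7.38%), all with a lower change without Pax5. These were Ighv1-81 (difference -3.42), Ighv10-1 (-2.54), Ighv6-6 (-2.25), Ighv13-2 (-2.01), Ighv7-1 (-1.83), Ighv3-8 and the proximal family members Ighv5-15, Ighv5-17 and Ighv2-9. The last 3 had log2 changes of 0.95, 1.03 and 0.73 in the Eed mutant and of -0.86, -0.75 and -0.62 without Pax5. Ighv1-81 lay near the floor without Pax5, as said above, so the size of its difference is uncertain. Without replicate 3 of the libraries lacking Pax5 the count was 4, and on the deposited percent it was 1.

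RNA of related cells was used to give the level of the genes behind these joins. The RNA came from 2 libraries labelled Pax5(-/-) progenitors and 3 labelled Pax5(+/+) pro-B cells, sorted from bone marrow. The null allele is not the Vav-Cre deletion of the join libraries, so the cells are related but not the same. Of 12023 genes tested with limma on log2(TPM + 1), 4441 passed (36.9%), 1869 higher (15.5%) and 2572 lower (21.4%), and 1947 and 1652 passed without progenitor replicate 1 and 2. In bulk RNA, fewer cells of a type and less RNA per cell cannot be told apart.

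Pax5 itself was at 43.0 and 39.1 TPM in progenitors against 342, 386 and 391 TPM (log2 change -3.15, limma adjusted p = 2.93e-06). Wapl, listed under its older symbol Wapal, was at 35.5 and 32.1 TPM against 6.16, 7.20 and 13.6 TPM, 3.66-fold higher (log2 change 1.87, SE 0.294, adjusted p = 0.00266). Both were separate between the groups and in opposite directions. Of 14 genes of the cohesin complex, its loaders and regulators, 0 were higher and 10 lower, beside 15.5% higher and 21.4% lower over all genes tested. Their median log2 change was -0.67 beside -0.11 over all genes tested. Among the core subunits, Smc1a and Smc3 did not pass, at log2 changes of -0.51 and -0.32. Rad21 (-0.84), Stag1 (-0.81) and Stag2 (-0.58) were called lower.

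Of 12 recombination genes 1 was higher and 6 lower, with a median log2 change of -0.56. Over all genes tested, 15.5% were higher and 21.4% lower. Rag2, a recombinase subunit, was at 22.5 and 21.7 TPM against 57.4, 73.2 and 68.8 TPM (log2 change -1.54, limma adjusted p = 0.000182). Rag1, its partner, was at 236 and 211 TPM against 267, 338 and 363 TPM (log2 change -0.52), a call lost when any 1 library but pro-B replicate 1 was left out. Lig4, the ligase that seals joins, fell by 0.94 on the log2 scale, and Xrcc5, which binds broken ends, rose by 1.17. The part of lower Rag1 and Rag2 RNA in the lower listed V totals was not tested.

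Markers in the RNA libraries moved as follows. Of 12 early B-lineage genes, 8 were lower and 0 higher, beside 21.4% lower and 15.5% higher over all genes tested. Of 6 T-lineage markers 2 passed the filter, Cd4 called higher and Thy1 lower, and their summed level was 12.9 to 16.0 TPM against 22.1 to 32.6 TPM. Myeloid markers summed to 55.4 to 83.7 TPM against 45.9 to 252 TPM, 2 of 7 lower, and erythroid markers to 4.55 to 9.78 TPM against 19.4 to 57.5 TPM. The part of other cell types in the RNA differences was not tested.

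No gene of the stretch nearest the D segments was called higher in RNA. Of 9 genes from Ighv5-1 to Ighv5-12 that passed the RNA filter, 0 were higher and 5 lower, with a median log2 change of -0.99. Ighv5-2 was at 11.8 and 11.9 TPM against 18.1, 19.2 and 27.6 TPM (log2 change -0.79, limma adjusted p = 0.0193), a call lost without either progenitor library. Of the named V genes tested, 0 of 20 were higher and 14 lower. Ighv1-26, which fell in share, was at 0.422 TPM and 0 against 10.1, 7.43 and 16.4 TPM (log2 change -3.30), and the RNA of Ighv10-1 did not pass. In the distal class 5 of 48 were higher and 23 lower, in the middle class 0 and 12 of 22, and in the proximal class 0 and 13 of 17. Over all genes tested, 15.5% were higher and 21.4% lower. RNA from unjoined and from joined V genes cannot be told apart in these libraries.

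**Figure D5:**
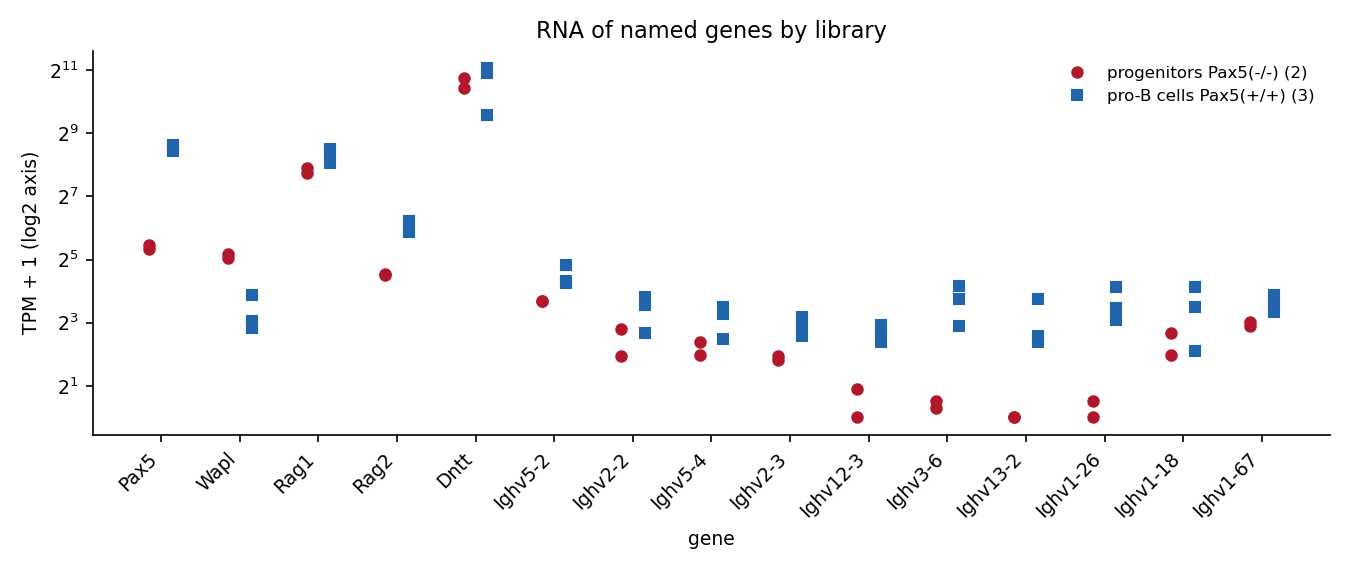
Each point is 1 RNA library, on a log2 axis of TPM + 1, for 15 genes, in Pax5(-/-) progenitors and Pax5(+/+) pro-B cells. The progenitors lie lower for Pax5 (39.1 and 43.0 TPM) and Rag2 and higher for Wapl (32.1 and 35.5 TPM against 6.16 to 13.6 TPM).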

How the data were processed

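The 7 main libraries were grouped by genotype label and by flow cell, which the names of the deposited files give. Their values were deposited by the authors as a percent per V gene, and 1 file holds 1 library. The submitters' processing notes name mm10 and R 3.3.3 for them. Not given in the sources used here are the aligner, the V gene caller, the denominator of the percent and the use of the molecular identifiers, so joins amplified more than once could count more than once. RNA values were deposited by the authors as TPM. In the 5 RNA libraries used the column has a library number as header and was recorded as signal, per the file headers.

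Shares were computed from the percent, and log2(share + 0.02) was fitted with limma 3.58.1 (R 4.3.3) with a trended prior for genes at 0.05% or more in at least 3 libraries. Benjamini-Hochberg adjustment ran over all genes tested, with a threshold of 0.05, two-sided. With 8.03 degrees of freedom for 7 libraries, these p-values lean on spread pooled across genes. Folds of named genes are ratios of mean shares, and log2 changes include the pseudocount of 0.02, which understates low genes. The same pseudocount was added to the deposited percent, where values are smaller and log2 changes are compressed more. Differences from other mutants were interaction contrasts in a fit of both mutants and both sets of controls. The Eed controls were 1 wild type and 1 Eed(fl/+) Rag1(+/+) library. Summary measures were compared by exact permutation tests. RNA was fitted on log2(TPM + 1) where at least 2 libraries reached 1 TPM. Fits were tested on simulated data. Python 3.11.15, numpy 2.4.6 and pandas 2.3.3 did the rest.

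The text names the 5 measured V genes nearest the D segments, the 6 most used in controls in each class, the 6 farthest, up to 5 per class called against their class, genes at 0 in all 3 libraries lacking Pax5 with a control mean of 0.5% or more, up to 5 per difference test, and fixed lists of recombination, cohesin and cell type genes. Other genes were chosen after their values were seen. Another marker list is not reported here. The members and lists were chosen with earlier results of these data known. Positions, biotypes and families come from RefSeq on GRCm38. Alternatives covered the choice of controls, each library left out, pseudocounts, filters, the scale and the prior. No V gene sequence was used here.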

Additional observations from a re-analysis of the deposited data

Results flagged for a closer look

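In 44 groups of 4 control values examined, 1 had a library far from the others by Dixon's criterion, and chance flags about 1 in 20 such groups. It was the share of Ighv1-81 in the controls, where the Pax5(+/+) library was at 0.922% and the 3 Igh(+/+) libraries had a mean of 1.28%. The gap divided by the range was 0.851, past that criterion for 4 values. All 3 libraries lacking Pax5 lay below that library.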

How the results depend on the processing

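The scale decided the direction of the proximal results. In deposited percent the difference (without Pax5 minus control) was -5.07 for the proximal families and -0.733 for Ighv5-2 (exact permutation p = 0.371), and 0 genes were higher. There Ighv5-1 (-0.28), Ighv5-2 (-0.45), Ighv2-2 (-0.69), Ighv5-4 (-0.75), Ighv2-3 (-1.13), Ighv5-6 (-0.62), Ighv5-12 (-1.38), Ighv9-1 (-1.87) and Ighv12-1 (-1.58) turned negative (log2). Centred on the median V gene, 69 genes passed, 46 higher and 23 lower. Positive log2 changes arose there for Ighv5-15 (1.86), Ighv5-16 (1.03), Ighv5-17 (1.97), Ighv2-9 (2.10), Ighv5-21 (0.56), Ighv7-1 (1.33), Ighv9-3 (1.56), Ighv14-4 (1.08), Ighv3-6 (0.69), Ighv13-2 (0.035), Ighv1-11 (0.15), Ighv1-18 (2.18) and Ighv1-84 (0.76). The value of Ighv5-21, which was at 0 in all libraries lacking Pax5, rests on the pseudocount.

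With the Pax5(+/+) library as the only control 39 genes passed, 7 higher and 32 lower, since 1 control carries no spread of its own. The summary differences were then -28.39 (listed V total), -37.25 (distal), -21.99 (middle), 59.24 (proximal), 30.78 (Ighv5-2) and -54.93 (effective number), at an exact permutation p of 0.25. With the 3 Igh(+/+) libraries alone they were -38.89, -39.42, -19.26, 58.68, 29.61 and -49.51, at an exact permutation p of 0.1. Each p is the smallest that design allows. Leaving out 1 library at a time they ranged from -38.89 to -33.97, -39.42 to -38.58, -20.64 to -19.26, 58.41 to 59.54, 29.15 to 30.7 and -51.59 to -49.51 (exact permutation p from 0.0667 to 0.1, again the smallest possible), and 110 to 113 V genes passed.

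Leaving out a library lacking Pax5, 15 to 22 genes differed from Wapl(deltaP1,2/deltaP1,2), 62 to 68 from deltaP1 and 4 to 10 from Eed. On the deposited percent 0, 77 and 1 did. Ighv6-3 lost its difference from Wapl(deltaP1,2/deltaP1,2) with a pseudocount of 0.1 (adjusted p = 0.0514). Against Eed, Ighv7-1 lost it without replicate 1 or 3 (0.101 and 0.126), and Ighv6-6 and Ighv1-81 without replicate 3 (0.0538 and 0.0571). The causes were not tested. Leaving out 1 RNA library gave 1652 to 5049 genes. RNA changes that turned, none of them called, were those of Dntt (-0.40 to 0.35), Ighv10-1 (-0.16 to 0.060) and Xrcc6 (-0.13 to 0.11). Of the values recomputed for named V genes, 523 kept direction and call, 24 lost the call, 1 gained it and 22 reversed. For named RNA genes these numbers were 282, 42, 6 and 6.

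No paired analysis was possible because the labels give no replicate numbers, and those used here follow accession order. Depth is not stated. In replicate 1 the smallest share above 0 was 0.0295%, so shares below that are not seen there. The most common share above 0 in replicate 1 was higher, at 0.0885%, and was held by 17 genes. The size of the step for a single join was not worked out.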
